A study of Mus musculus with 6 samples.

Results

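Voltage-gated calcium channels open when the membrane depolarizes and let calcium into the cell. Each channel is built around 1 pore-forming α1 subunit, which sets the channel type (T, L, P/Q, N or R), and most types also carry an intracellular β subunit and an α2δ subunit that bring the pore to the membrane and tune its gating, whereas T-type pores can work without them. They are known best from neurons, muscle and endocrine cells. Alveolar type 2 cells (AT2s), the surfactant-producing stem cells of the alveolar epithelium, are not electrically excitable in the usual sense, and calcium is known there mainly as a trigger of surfactant secretion.

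The genes described here are 10 subunit genes among the 24421 genes of the count table: the pore-forming *Cacna1g*, *Cacna1h*, *Cacna1a*, *Cacna1c* and *Cacna1d*, the β subunits *Cacnb1*, *Cacnb3* and *Cacnb4*, and the α2δ subunits *Cacna2d1* and *Cacna2d2*. They were picked by symbol with results of these same libraries known, and *Cacna1g* was selected on its difference between the groups compared here. The differences between groups are therefore given for these 10 genes as a description, with no p-value for any of them, and a count of those that passed a threshold is given only as a description too. All 10 were among the 16723 genes that passed the filter on low counts.

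The libraries hold poly(A) RNA of lineage-labeled AT2s sorted by FACS from 6 mice on a C57BL/6 background. The 3 AT2CTRL mice had the genotype Sftpc-CreERT2/+; R26-tdTomato/+ and were 12, 16 and 12 weeks old for replicates 1, 2 and 3. The 3 AT2CAB mice had the genotype Sftpc-CreERT2/+; R26-tdTomato/R26-caBmpr1a, were 16, 12 and 12 weeks old, and express from the R26-caBmpr1a allele a constitutively active type I BMP receptor once tamoxifen has switched on Cre. Both groups carry the Sftpc-driven CreERT2 and the tdTomato reporter, so Cre acts in cells with an active Sftpc promoter. The reporter and the receptor are separate alleles, and a labeled cell need not have recombined both.

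Depth was between 21554249 and 28440227 counts per library, and 3 counts correspond to between 0.105 and 0.139 CPM. CPM are counts divided by the size of the library, after scaling between libraries with edgeR's TMM method, and the limit of 3 counts covers counting error only. AT2CTRL replicate 1 and AT2CAB replicate 3 stood apart, since 4 genes of the Y chromosome (*Eif2s3y*, *Kdm5d*, *Ddx3y* and *Uty*) summed to 176.4 and 146.3 CPM there and to 0 in the other 4. Values from those 4 libraries alone are given where they matter. *Sftpc*, the surfactant protein gene that drives Cre here, had between 42700 and 60100 CPM in all 6 libraries. The cells were sorted on a label that needs an active *Sftpc* promoter, so this level is no separate check of their identity.

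*Cacna1g* encodes the pore of a T-type channel, the type that opens at small depolarizations near the resting potential. It was close to the detection limit in AT2CTRL and well above it in AT2CAB cells. The gene had 32, 8 and 13 counts in AT2CTRL replicates 1, 2 and 3, and 477, 1439 and 1461 counts in AT2CAB replicates 1, 2 and 3. Scaled to depth, these were 1.43, 0.343 and 0.495 CPM against 21.9, 55.8 and 47.6 CPM. The lowest AT2CAB library thus lay far above the highest AT2CTRL library, and AT2CAB replicate 1 was the lowest of its group. Group means of 0.758 ± 0.591 and 41.7 ± 17.7 CPM (SD, n = 3) gave a 55.1-fold ratio, and the fitted log2 fold change was 5.80 with a standard error of 0.54. Ordered by log2 fold change, *Cacna1g* was number 4 of the 16723 genes tested. The log2 difference was 6.55 in the 4 libraries without reads on the Y-linked genes and 5.05 between the remaining pair. The gene lies on the minus strand of chromosome 11 (chr11:94408391-94474198, mm10). Its 36 merged exons hold 8223 bases, none of which overlap an exon of another gene in the table.

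*Cacna1a*, the pore of P/Q-type channels known from presynaptic terminals, showed the same order of libraries within each group. It had 142, 55 and 116 counts in the AT2CTRL libraries and 312, 942 and 962 counts in the AT2CAB libraries, which gave 6.37, 2.36 and 4.42 CPM against 14.3, 36.5 and 31.3 CPM. The groups did not overlap, and AT2CTRL replicate 1 was the highest and AT2CAB replicate 1 the lowest of its group. Group means of 4.38 ± 2.0 and 27.4 ± 11.6 CPM (SD, n = 3) gave a 6.25-fold ratio. The log2 fold change was 2.65 with a standard error of 0.43, number 27 of all genes tested in that order. It was 2.94 in the 4 libraries and 2.30 between the remaining pair. The gene lies on the plus strand of chromosome 8 (chr8:84415364-84640249, mm10), has 47 merged exons in the table and shares no exonic base with another gene.

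*Cacna1h*, the other T-type pore among the 10 genes, was barely detected. It had 2, 14 and 12 counts in AT2CTRL and 35, 12 and 18 counts in AT2CAB libraries, or 0.0897, 0.6 and 0.457 CPM against 1.60, 0.466 and 0.586 CPM. The groups overlapped, and the highest value came from AT2CAB replicate 1, the library that was lowest of its group for *Cacna1g* and *Cacna1a*. The log2 fold change was 1.18 with a standard error of 0.80, and it was 0.46 without AT2CAB replicate 1 and 0.72 without AT2CTRL replicate 1. A small stretch of the gene (chr17:25374287-25433783, minus strand), 1.9% of its exonic bases, also belongs to *Tpsg1*.

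The L-type pores, which open at larger depolarizations and are the targets of dihydropyridine drugs, overlapped between the groups. *Cacna1c* had 55.6, 73.4 and 95.2 CPM in AT2CTRL and 77.6, 68.8 and 72.7 CPM in AT2CAB libraries. The means were 74.7 ± 19.8 and 73.0 ± 4.38 CPM (SD, n = 3), and the log2 fold change was -0.034 with a standard error of 0.18. *Cacna1d* had 8.83, 11.9 and 14.4 CPM against 12.1, 12.9 and 9.60 CPM, with a log2 fold change of -0.02 and a standard error of 0.21. For both genes the groups overlapped, and the sign of the log2 fold change turned under 5 of 17 alternative settings. *Cacna1c* lies at chr6:118587240-119196409 and *Cacna1d* at chr14:30039941-30491156, both on the minus strand. Of the exonic bases of *Cacna1d*, 5.62% also belong to *Chdh*.

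**Figure D1:**
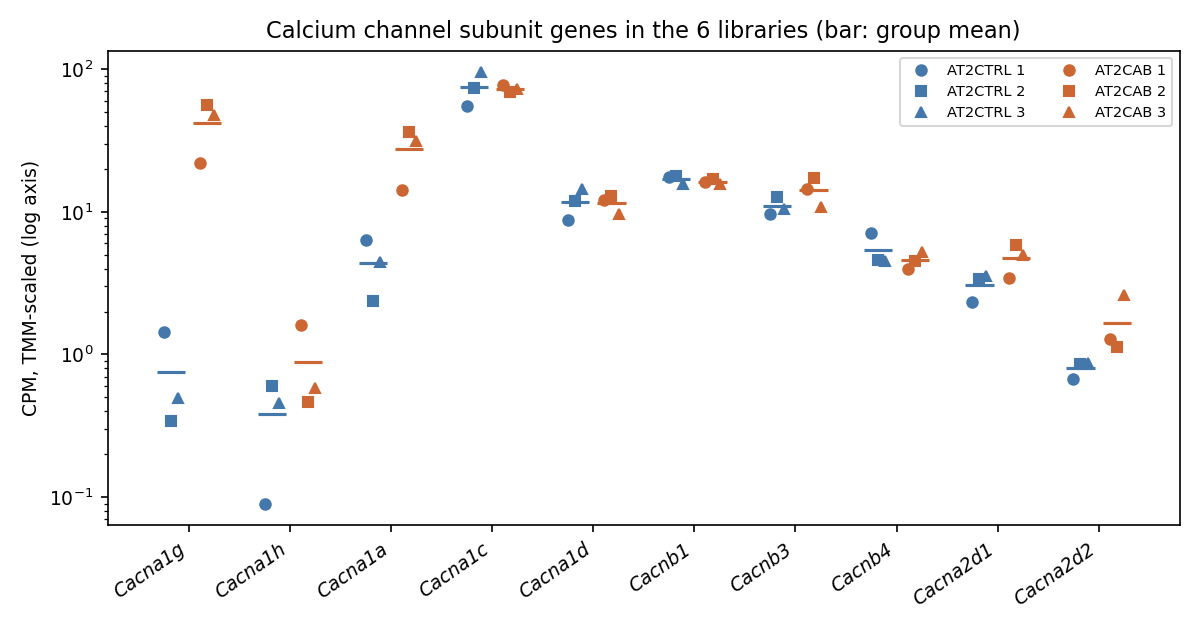
Level of the 10 calcium channel subunit genes in the 6 libraries, in TMM-scaled CPM on a log axis (blue, AT2CTRL; orange, AT2CAB; symbols mark the replicate number and bars the group mean, n = 3). The 3 AT2CAB values lie above the 3 AT2CTRL values for *Cacna1g*, *Cacna1a* and *Cacna2d2*, and the groups overlap for the other 7 genes.

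The β subunits bind the intracellular side of L, P/Q, N and R-type pores and help them reach the membrane. *Cacnb1* (chr11:98001508-98022627, minus strand) had 17.6, 17.7 and 15.8 CPM in AT2CTRL and 16.1, 16.9 and 15.8 CPM in AT2CAB libraries. *Cacnb3* (chr15:98632328-98644536, plus strand) had 9.73, 12.7 and 10.4 CPM against 14.4, 17.3 and 10.8 CPM. *Cacnb4* (chr2:52428320-52676609, minus strand) had 7.13, 4.59 and 4.49 CPM against 3.99, 4.54 and 5.24 CPM. The groups overlapped for all 3 genes. The log2 fold changes were -0.07 for *Cacnb1*, 0.37 for *Cacnb3* and -0.23 for *Cacnb4*, with standard errors of 0.12, 0.20 and 0.27.

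The α2δ subunits sit on the outer face of the membrane, where they raise the number of channels at the surface and bind gabapentinoid drugs. *Cacna2d1* (chr5:15934691-16374511, plus strand) had 2.33, 3.39 and 3.54 CPM in AT2CTRL and 3.44, 5.82 and 5.01 CPM in AT2CAB libraries, so that AT2CAB replicate 1 fell within the range of AT2CTRL. Its log2 fold change was 0.62 with a standard error of 0.32. *Cacna2d2* (chr9:107399880-107529343, plus strand) had 15, 20 and 23 counts against 28, 29 and 80 counts, or 0.673, 0.857 and 0.876 CPM against 1.28, 1.12 and 2.60 CPM. All 3 AT2CAB values lay above those of AT2CTRL, with AT2CAB replicate 3 well above the others. The log2 fold change of *Cacna2d2* was 1.06 with a standard error of 0.51, and 0.50 in the 4 libraries without reads on the Y-linked genes.

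Counted together, 3 of the 10 genes had every AT2CAB value above every AT2CTRL value and 0 of 10 had every value below, where the shares over all genes tested were 7% and 10.1%. By edgeR's quasi-likelihood test, with the adjusted p below 0.05 and more than a 2-fold difference, 1 of the 10 genes was called, *Cacna1g*, where 0.239% of all genes were called and 0.227% were called higher. DESeq2 gave an adjusted p to 8 of the 10 genes (not to *Cacna1h* and *Cacna2d2*) and called 2 of these, *Cacna1g* and *Cacna1a*, where it called 1.06% of all genes to which it gave one. Since these genes were picked with this contrast known, the counts describe them and nothing is read from them. The count was 0 of 10 with limma-voom, without AT2CTRL replicate 2 and without AT2CTRL replicate 3. It was 2 of 10 without the filter on low counts, with age as a factor and without AT2CAB replicate 1. The median log2 fold change was 0.497 over the 10 genes and 0.175 over the 8 genes other than *Cacna1g* and *Cacna1a*, beside -0.0096 over all genes tested.

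**Figure D2:**
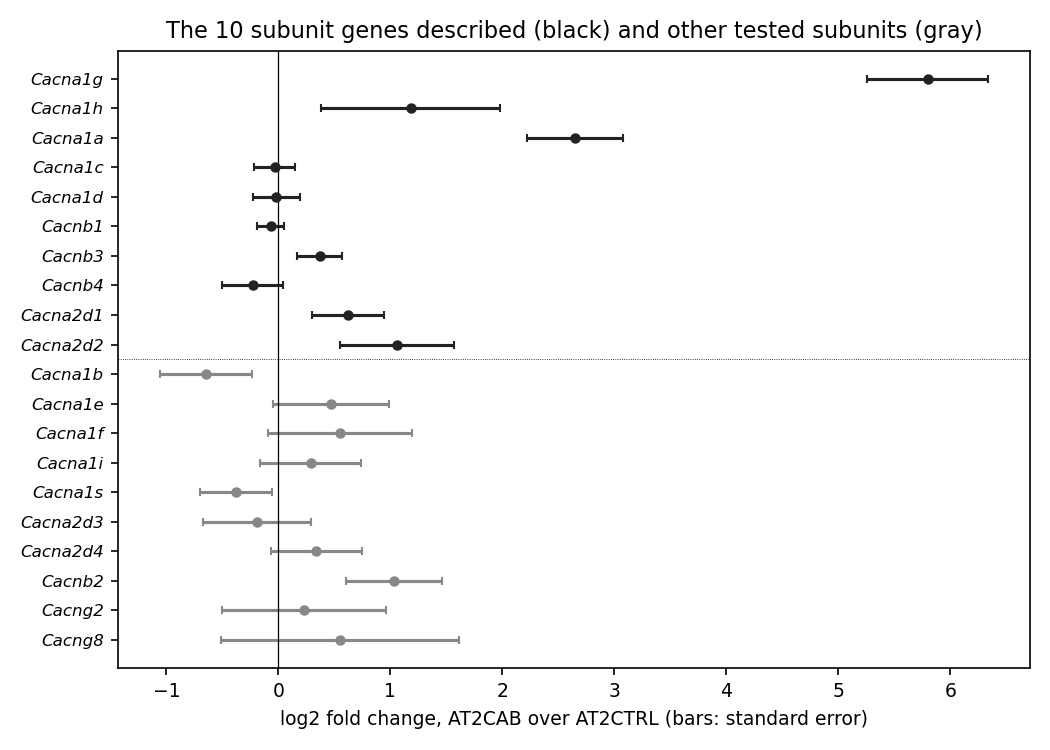
Fitted log2 fold change of AT2CAB over AT2CTRL with its standard error, for the 10 genes described (black) and the 10 other voltage-gated calcium channel subunits that passed the filter (gray). *Cacna1g* at 5.80 and *Cacna1a* at 2.65 stand apart, and the other 18 genes lie between -0.65 and 1.18.

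To compare the genes with each other, counts were divided by exonic length and scaled to the same total in each library (TPM). In AT2CTRL cells the order of mean levels was *Cacna1c* (10.7 TPM), *Cacnb1* (9.27 TPM), *Cacnb3* (7.65 TPM), *Cacna1d* (2.64 TPM), *Cacnb4* (1.29 TPM), *Cacna1a* (1.14 TPM), *Cacna2d1* (0.87 TPM), *Cacna2d2* (0.305 TPM), *Cacna1g* (0.187 TPM) and *Cacna1h* (0.0999 TPM). Neighbors in this order overlapped between libraries except at the steps from *Cacnb3* to *Cacna1d*, from *Cacna1d* to *Cacnb4* and from *Cacna2d1* to *Cacna2d2*. *Cacna1g* was thus ninth of 10, next to *Cacna1h*. In AT2CAB cells *Cacna1g* came first by its mean, at 12.0 ± 5.25 TPM (SD, n = 3), ahead of *Cacna1c* (11.6 TPM), *Cacnb3* (11.1 TPM), *Cacnb1* (9.94 TPM) and *Cacna1a* (8.17 TPM), and each of these 5 genes overlapped its neighbor. The remaining genes followed at a distance, with *Cacna1d* at 2.9, *Cacna2d1* at 1.5, *Cacnb4* at 1.25, *Cacna2d2* at 0.712 and *Cacna1h* at 0.25 TPM.

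The make-up of the pore-forming transcripts differed accordingly. Of the summed TPM of the 10 pore-forming genes in the table (the 5 above with *Cacna1b*, *Cacna1e*, *Cacna1f*, *Cacna1i* and *Cacna1s*), *Cacna1g* took 2.18%, 0.489% and 0.506% in the AT2CTRL libraries and 19.5%, 35.1% and 32.7% in the AT2CAB libraries. *Cacna1a* took 10%, 3.49% and 4.69% against 13.2%, 23.8% and 22.3%. A share within 1 library does not depend on how libraries are scaled to each other, and the groups did not overlap for either gene. These shares use the same counts on which *Cacna1g* was selected, so they describe that difference and do not test it. The L-type genes together took 80.7% ± 5.6 in AT2CTRL and 44.5% ± 12.0 in AT2CAB (SD, n = 3), although their summed level was 16.2 ± 4.54 and 17.1 ± 1.05 TPM. The T-type genes together had 0.579 ± 0.154 and 12.7 ± 5.11 TPM. The sum over all 10 pore-forming genes was 15.6, 18.5 and 25.6 TPM in AT2CTRL and 31.2, 45.9 and 42.3 TPM in AT2CAB libraries.

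**Figure D3:**
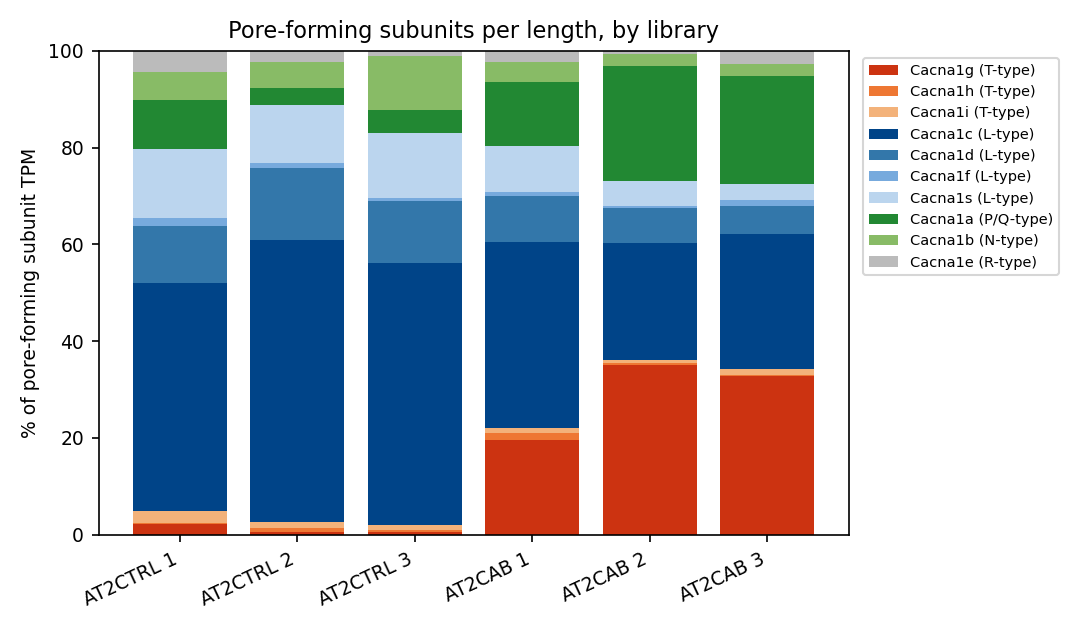
Share of each pore-forming subunit gene in the summed TPM of the 10 pore-forming genes, in percent, 1 bar per library. The 3 AT2CAB bars hold 19.5% to 35.1% *Cacna1g* (red) and 13.2% to 23.8% *Cacna1a* (dark green), and *Cacna1c* (dark blue) goes from a mean of 53.2% in AT2CTRL to 30.1% in AT2CAB.

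The genes whose pattern over the 6 libraries was most like that of *Cacna1g* were ranked by the root mean square difference of log2 CPM, each gene taken relative to its own AT2CTRL mean. The 5 nearest were *Fam19a4* (0.90), *Susd2* (0.94), *Tmem91* (1.10), *Tcerg1l* (1.16) and *Id3* (1.18), and *Cacna1a* came at rank 21 (2.23). *Susd2*, which encodes a membrane protein, had 5.20, 5.53 and 4.04 CPM in AT2CTRL and 78.3, 149 and 185 CPM in AT2CAB libraries. *Id3*, a direct target of BMP-SMAD signaling, had 13.8, 15.6 and 11.2 CPM against 179, 247 and 545 CPM. *Fam19a4* had 0, 0 and 3 counts against 50, 210 and 110 counts, and *Tcerg1l* had 0, 4 and 1 counts against 92, 241 and 713 counts, so both were at or near the limit of 3 counts in AT2CTRL. AT2CAB replicate 1, from the mouse of 16 weeks in its group, was the lowest AT2CAB library for these 5 genes as for *Cacna1g* and *Cacna1a*. AT2CTRL replicate 2, also from a mouse of 16 weeks, was the lowest AT2CTRL library for *Cacna1g* (0.343 CPM) and *Cacna1a* (2.36 CPM). It was not the lowest for *Susd2*, *Tmem91*, *Tcerg1l* or *Id3*. The 5 genes were ranked on likeness to *Cacna1g* over these same libraries, which favors a shared order, so nothing is read from it. With age as a factor in the fit, the log2 fold change was 5.82 for *Cacna1g* and 2.64 for *Cacna1a*. The part of age in the order of the libraries was not tested.

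**Figure D4:**
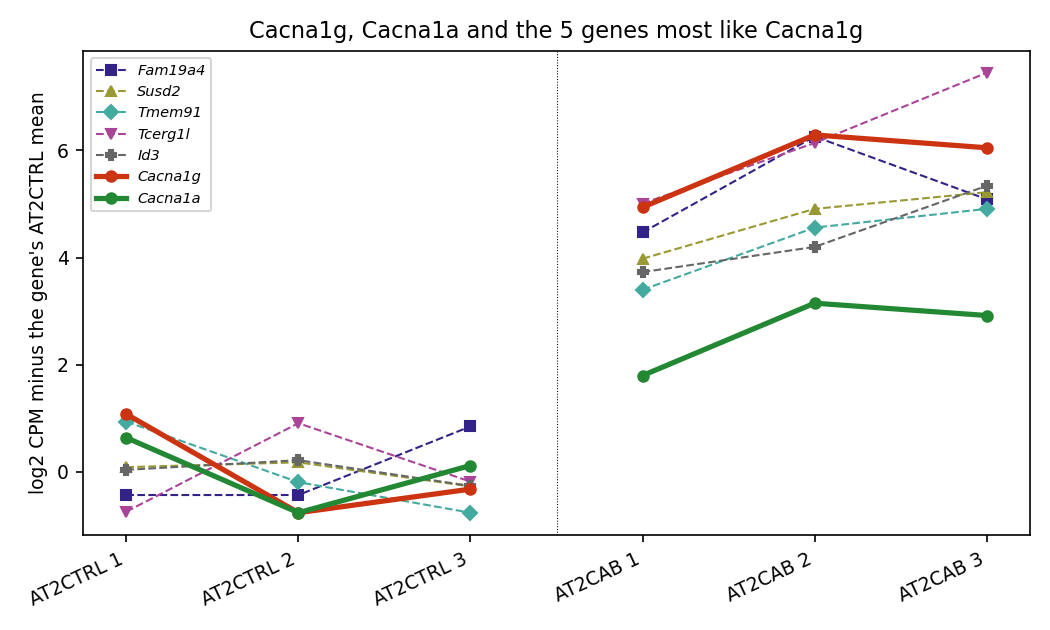
log2 CPM (prior count of 2) relative to each gene's AT2CTRL mean in the 6 libraries, for *Cacna1g* and *Cacna1a* (thick lines) and the 5 genes most like *Cacna1g* (dashed lines), with lines joining libraries of 1 group to help the eye only. *Cacna1g* lies at 4.94, 6.29 and 6.05 and *Cacna1a* at 1.80, 3.15 and 2.92 in the AT2CAB libraries, with AT2CAB 1 the lowest for all 7 genes. The 5 genes were ranked on these same values, which favors a shared order.

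A further 16 voltage-gated calcium channel subunit genes were in the table, and 10 of them passed the filter: the pores *Cacna1b* (N-type), *Cacna1e* (R-type), *Cacna1f* and *Cacna1s* (L-type) and *Cacna1i* (T-type), the auxiliary *Cacnb2*, *Cacna2d3* and *Cacna2d4*, and *Cacng2* and *Cacng8* of the γ family. None was called by edgeR (0 of 10), limma-voom (0 of 10) or DESeq2 (0 of the 9 to which it gave an adjusted p), where edgeR called 0.239% of all genes tested. At an unadjusted p under 0.05 in edgeR, 1 was higher and 0 were lower, where the shares over all genes tested were 4.62% and 5.05%. That gene was *Cacnb2*, a β subunit known from the heart, with 1.84, 1.20 and 0.838 CPM in AT2CTRL and 2.66, 2.13 and 3.12 CPM in AT2CAB libraries, a log2 fold change of 1.03 (standard error 0.43) and an edgeR adjusted p of 0.499. The median log2 fold change of the 10 was 0.319, against -0.0096 over all genes, with *Cacna1b* lowest at -0.65. For 7 of these 10 genes, AT2CTRL replicate 1 and AT2CAB replicate 3 held both of the highest values, which was so for 19.5% of all genes tested and for 1 of the 10 genes described first (*Cacnb4*). This count was chosen after the values were seen. The part of these libraries in the levels was not tested.

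*Cacna1i*, the remaining T-type pore, was low in both groups, with 1.97, 1.07 and 1.10 CPM in AT2CTRL and 1.51, 1.51 and 2.05 CPM in AT2CAB libraries. The difference seen for *Cacna1g* had no like-sized counterpart in the measured levels of either other T-type gene: the log2 fold change was 0.29 for *Cacna1i* (standard error 0.45, edgeR adjusted p = 0.863) and 1.18 for *Cacna1h*. *Cacng1*, *Cacng3*, *Cacng4*, *Cacng5*, *Cacng6* and *Cacng7* did not pass the filter.

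Genes that handle calcium by other routes were taken in 7 lists, of 67 genes in all, 66 of them tested. None was called (0 of 66 by edgeR or limma-voom, and 0 of the 62 to which DESeq2 gave an adjusted p), where edgeR called 0.239% of all genes tested. At an unadjusted p under 0.05 in edgeR 6 of the 66 were higher and 4 lower, where the shares over all genes were 4.62% and 5.05%. In 11 genes every AT2CAB value lay above every AT2CTRL value and in 10 every value lay below (7% and 10.1% over all genes), and the median log2 fold change was 0.002. Among the regulators that bind voltage-gated channels (12 tested), the small GTPase gene *Rem1* had the largest log2 fold change, 0.82 (standard error 0.49), at 12 to 54 counts per library. At an unadjusted p under 0.05 in edgeR, 0 regulators were higher and 2 were lower. One of these, named after its values were seen, was *Gem*, a GTPase of the same family, with 252, 270 and 358 CPM in AT2CTRL and 208, 175 and 199 CPM in AT2CAB libraries (log2 fold change -0.60, edgeR adjusted p = 0.291). Among the genes of store-operated entry (7), in which STIM proteins open ORAI channels when the endoplasmic reticulum runs low, *Orai2* had 14.2, 19.8 and 21.1 CPM in AT2CTRL and 32.5, 35.8 and 26.8 CPM in AT2CAB libraries. Its log2 fold change was 0.79, with an adjusted p of 0.208 in edgeR and 0.0317 in DESeq2, and the fold change was under 2 in both.

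In the other lists, the TRP, Piezo and P2X entry channels (11 tested) had a median log2 fold change of 0.0565, with 1 higher and 1 lower at an unadjusted p under 0.05 in edgeR (4.62% and 5.05% over all genes). *Itpr3*, a calcium release channel of the endoplasmic reticulum (list of 6), had 90.4, 148 and 175 CPM against 194, 216 and 241 CPM, a log2 fold change of 0.65 and an edgeR adjusted p of 0.416. *Atp2b4*, a plasma membrane calcium pump (pumps and exchangers, 10), had a log2 fold change of 0.61, and *Letm1* of the mitochondrial list (5) -0.14. Among the calcium effectors (15), kinases, calcineurin and NFAT genes that respond to raised calcium, *Camk2b* had 23.0, 35.6 and 18.2 CPM in AT2CTRL and 15.9, 3.45 and 17.0 CPM in AT2CAB libraries. The fitted log2 difference was -1.08, with a standard error of 0.51 and an edgeR adjusted p of 0.548, and AT2CAB replicate 2 was the low library.

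**Figure D5:**
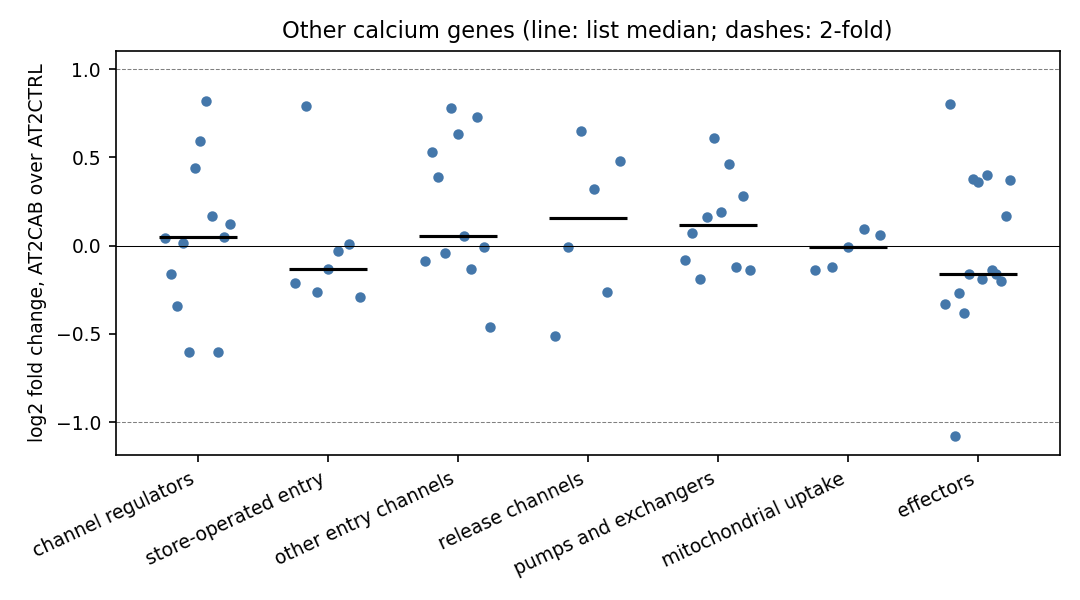
log2 fold change of AT2CAB over AT2CTRL for the 66 tested genes of 7 calcium handling lists, 1 point per gene, with a line at each list's median. All points but 1 (*Camk2b*, -1.08) lie within the 2-fold dashed lines, and the list medians lie between -0.156 and 0.155.

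Markers of other cell types were read beside these values, since in bulk samples fewer cells of a type and less RNA per cell cannot be told apart. The summed level of 12 AT2 markers was 133634 to 145277 CPM in AT2CTRL and 106555 to 123487 CPM in AT2CAB libraries. Sums over 12 endothelial markers ran from 349 to 775 CPM and from 659 to 1092 CPM, with all 12 log2 fold changes positive and a ratio of group means of 1.51. Sums over 13 mesenchymal and smooth muscle markers, cells in which *Cacna1g* and *Cacna1c* are well known, ran from 171 to 228 and from 270 to 340 CPM, with all 13 positive and a ratio of 1.52. Within AT2CTRL, *Cacna1g* was highest in replicate 1, at 32 counts, the library with the lowest endothelial and mesenchymal sums. Within AT2CAB the order was the other way. *Cacna1g* was highest in replicate 2 and lowest in replicate 1, as were the endothelial sums (659, 1092 and 699 CPM) and the mesenchymal sums (270, 340 and 311 CPM). None of the genes of these 2 lists was called (0 by edgeR, DESeq2 or limma-voom). At an unadjusted p under 0.05 in edgeR, 6 of 12 endothelial and 5 of 13 mesenchymal genes were higher, against 4.62% of all genes. DESeq2 gave an adjusted p below 0.05 to *Col1a1* (0.00519), *Col1a2* (0.00803), *Col3a1* (0.00638) and *Ednrb* (0.0228). All of these were higher in AT2CAB, with fold changes under 2, and their edgeR adjusted p lay between 0.114 and 0.215. Of the endothelial markers, *Ptprb* was the most abundant by CPM and *Cldn5* per length, and of the mesenchymal markers *Col3a1* by both. The genes that differed most were *Ednrb* (log2 fold change 0.89) and *Des* (0.93).

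Neuroendocrine and neuronal markers, of cells that use P/Q and T-type channels, summed to 18.0, 17.2 and 9.18 CPM in AT2CTRL and 17.0, 15.1 and 24.4 CPM in AT2CAB libraries, with overlapping groups. In these 10 markers, *Chga* and *Calca* stayed under 1 CPM in every library, *Stmn2* was the most abundant, and *Syt1* had the largest log2 fold change (0.88). The AT1 sums overlapped (4511 to 5451 and 4838 to 5558 CPM), with *Ager* the most abundant and *Rtkn2* the most different at 0.84. The immune sums were 1988 to 2700 CPM in AT2CTRL and 314 to 1381 CPM in AT2CAB, carried by *Lyz1*, and without it the ratio was 1.40 in favor of AT2CAB. *S100a8* had the largest log2 fold change of that list (1.47, standard error 0.94, edgeR adjusted p = 0.648). Its counts were 7, 24 and 18 in AT2CTRL and 88, 38 and 6 in AT2CAB libraries, so the groups overlapped. In the airway list, led by *Scgb1a1*, the sums overlapped (722 to 909 and 838 to 1218 CPM) and *Krt5* was at 0 in all libraries. *Tppp3*, a gene of ciliated cells, rose from 96.5 ± 6.34 to 348 ± 98.9 CPM (SD, n = 3), with a log2 fold change of 1.85 and an edgeR adjusted p of 0.0165. Other genes of ciliated cells in that list were not called. *Foxj1* had means of 4.12 and 6.27 CPM (log2 fold change 0.61, edgeR adjusted p = 0.57). *Ccdc39* had 1.73 and 1.90 CPM (0.13, edgeR adjusted p = 0.938). *Cxcl15* differed most among the 12 AT2 markers (-1.01, edgeR adjusted p = 0.367). DESeq2 gave *Cxcl15* an adjusted p of 0.037 and *Sftpd* 0.00935, with fold changes under 2, so neither was called. Of the 12, 5 were lower and 0 higher at an unadjusted p under 0.05 in edgeR (5.05% and 4.62% over all genes). In 6 of the 12 every AT2CAB value lay below every AT2CTRL value (10.1% over all genes). The part of these lists in the values of the calcium channel genes was not tested.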

How the data were processed

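RNA of sorted AT2s from 3 AT2CTRL and 3 AT2CAB mice was sequenced as paired reads. The authors trimmed the reads, aligned them to mm10 with HISAT2, removed duplicates and counted reads on genes with featureCounts (1.5.3 per the file headers), and deposited raw counts for 24421 genes without normalization. The header holds no option for strand or for read pairs, so a pair may have counted double and reads of overlapping or antisense genes cannot be told apart. The methods state that fragments were counted.

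All genes entered 1 quasi-likelihood fit in edgeR 4.0.16 (R 4.3.3), with TMM scaling, no covariates, filterByExpr at its default minimum of 10 counts, and Benjamini-Hochberg adjustment over 16723 genes. A gene was called where the adjusted p was below 0.05 and the log2 fold change beyond 1 up or down. The standard error is the log2 fold change divided by the square root of F. The methods name DESeq2. It was run as an alternative (1.42.0, default settings), as was limma-voom (limma 3.58.1). On simulated counts with a log2 change of 2, over 3 draws of at least 16344 genes, 81.7% of the altered genes were recovered by edgeR, with 2.76% false calls. The simulation gave genes of like level the same spread and held no library that stood apart. The share recovered therefore need not hold for these libraries. TPM used the length column of the table, and coordinates are those of the table.

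The members and lists were chosen with earlier results of these data known. The text names the 10 members, list genes that passed both thresholds, the gene that differed most in each list, the 5 genes most like *Cacna1g*, and the most abundant and most different gene of each marker list. For 1 list the gene that differed most is not reported here. Other genes are named as context. *Mcub* had no row of that name and *Stac* did not pass the filter. Groups and replicate numbers come from the labels. Every pair of libraries of 1 group differed by more than counting noise (chi-square per gene from 13.8 to 76.3), so all 6 were kept. Same-numbered libraries come from different mice. The exact permutation test of 3 against 3 cannot go below p = 0.1 and was not used.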

Additional observations from a re-analysis of the deposited data

How the results depend on the processing

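The log2 fold change of *Cacna1g* lay between 5.46 and 6.61 under 17 alternatives (other tests, scalings, filters, age, prior count, halved counts and left-out libraries), and that of *Cacna1a* between 2.34 and 3.00. For the other 8 genes the range crossed 0 for *Cacna1c* (5 of 17), *Cacna1d* (5), *Cacnb1* (2) and *Cacnb4* (1). *Cacnb1* moved to 0.062 when scaled by library size only, which shifted the median of all genes to 0.12, and *Cacna2d2* to 0.50 in the 4 libraries at 0 on the Y-linked genes. A minimum count of 30 left *Cacna1h* and *Cacna2d2* without a value, and halved counts left *Cacna1h* without one. The number of genes called in the whole table was 40, and 144 with DESeq2, 62 without a filter on low counts and 26 with limma-voom. With 1 library left out it ran from 6 (without AT2CTRL replicate 2) to 63 (without AT2CAB replicate 1), with 13 and 7 without AT2CTRL replicates 1 and 3 and 8 without AT2CAB replicate 2. The cause was not tested. The counts of 0 among the other subunits and the calcium handling genes stayed 0 under all 16 alternatives. With 6 to 144 genes called in the whole table, 0 was likely in lists of this size, so nothing is read from it. The deviations of same-numbered libraries correlated at -0.24, 0.202 and -0.531. With 3 libraries in a group, deviations from the group mean depend on each other, so these values cannot decide whether the numbers mark pairs. With the replicate number as a block, *Cacna1g* had a log2 fold change of 5.74, *Cacna1a* 2.63, and 41 genes were called. Depth limits *Cacna1h*, *Cacna2d2* and AT2CTRL values of *Cacna1g*, where 3 counts are 0.105 to 0.139 CPM. With an alternative added after seeing the data, a prior count of 0.5, 4 of the 5 genes most like *Cacna1g* stayed the same.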

Other observations

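Other ion channel and transporter genes were among those called higher in AT2CAB cells. They were chosen after their values were seen and belong to no list above. *Ano1*, a chloride channel opened by intracellular calcium, had 23.5, 37.2 and 30.2 CPM in AT2CTRL and 103, 160 and 157 CPM in AT2CAB libraries (log2 fold change 2.21, standard error 0.22, edgeR adjusted p = 0.0116). *Kcnk3*, a background potassium channel that helps to set the resting potential, had 3.72, 8.40 and 4.57 CPM against 33.1, 40.1 and 29.7 CPM (log2 fold change 2.62, standard error 0.29, edgeR adjusted p = 0.0165). *Kcnf1*, a modifying subunit of voltage-gated potassium channels, rose by a log2 fold change of 1.83 and *Slc12a7*, a potassium-chloride cotransporter, by 1.76, each at an edgeR adjusted p of 0.0234. In all 4 genes the 3 AT2CAB values lay above the 3 AT2CTRL values, which was so for 7% of all genes tested. The 4 were taken from the genes called higher, which favors such a separation, so nothing is read from it. For *Kcnk3*, AT2CAB replicate 1 was not the lowest of its group, unlike for *Cacna1g*.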
